A study of Mus musculus with 16 samples.

Results

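The 10 genes described here encode transcription factors that set the fate of squamous epithelial cells: Trp63, Sox2, Klf4, Klf5, Grhl1, Grhl3, Ovol1, Zfp750, Elf3 and Ehf. They were taken by gene symbol from a table of 41411 genes, as known regulators of the squamous stem and differentiation states, by a rule that uses no measured value. Of the 10 genes, 9 were among the 16748 genes tested, and Sox2 was not. RNA had been extracted from the esophagus of C57BL/6 mice, some of which had experimental eosinophilic esophagitis, in which eosinophils invade the mucosa after an allergic stimulus. CEL-Seq, which reads the 3′ ends of transcripts, was used to measure it.

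The 16 libraries formed 4 groups of 4. WT vehicle mice were wild type and received the vehicle, and WT OXA mice were wild type and received OXA, the hapten oxazolone, which provokes an allergic response. KO vehicle and KO OXA mice lacked Il13ra1, through which IL-13 signals once it is joined by Il4ra in the type II receptor, and received vehicle or OXA. No tissue-specific driver is given for the deletion in the labels, nor are the age of the animals, the dose or the length of treatment. Il13ra1 itself had values of 31.2 to 64.7 in KO vehicle and 44.0 to 174 in KO OXA. In wild type it had 134 to 226 with vehicle and 584 to 874 with OXA. All values are deposited normalized counts, that is reads divided by 1 scaling factor per library. Reads from the 3′ end can fall outside the deleted part of a gene, so the remaining Il13ra1 values do not check the deletion.

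Read totals moved with the groups, from 5.61 to 9.55 M (mega, n = 4) per library for WT vehicle and 7.91 to 16.5 M for KO vehicle, to 8.82 to 15.2 M for KO OXA and 20.2 to 27.3 M for WT OXA. The fewest reads behind any value of the 9 tested regulators were 186, for Elf3 in KO OXA replicate 3. The keratins Krt4 and Krt13, which define suprabasal esophageal epithelium, averaged 1248000 and 333000 in WT vehicle and 375700 and 148700 in WT OXA. The KO vehicle means were 1214000 and 280000 and the KO OXA means 1437000 and 340800. The labelled tissue therefore carried its defining markers in every group.

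In squamous epithelium, p63 (Trp63) and Sox2 maintain the basal layer in which the cells divide. Klf5 is active in proliferating basal and early suprabasal cells, whereas Klf4, Grhl3, Ovol1 and Zfp750 promote exit from the cell cycle and terminal differentiation, and Grhl1 controls desmosomal and barrier genes. Elf3 and Ehf belong to the epithelium-specific branch of the ETS family and act in differentiating and stressed epithelia. IL-13 is known to lower the expression of terminal differentiation genes in squamous epithelium through STAT6.

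Elf3 and Grhl3 moved most, in opposite directions, and both have an entry in RefSeq's mouse promoter table (build GRCm38.p6), as do Sox2, Klf4 and Grhl1. The 250 bases before their transcription starts are shown because the largest changes below concern these genes. The Elf3 stretch lies at chr1:135258473-135258722 on the minus strand and the Grhl3 stretch at chr4:135573633-135573882 on the minus strand. Each is written 5′ to 3′ up to the base before the start, with CpG dinucleotides in capitals.
Elf3: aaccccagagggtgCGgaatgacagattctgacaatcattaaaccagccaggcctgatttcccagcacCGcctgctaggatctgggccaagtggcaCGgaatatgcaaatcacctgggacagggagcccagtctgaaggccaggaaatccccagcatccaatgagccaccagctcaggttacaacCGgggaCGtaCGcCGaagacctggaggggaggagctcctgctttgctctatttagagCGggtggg
Grhl3: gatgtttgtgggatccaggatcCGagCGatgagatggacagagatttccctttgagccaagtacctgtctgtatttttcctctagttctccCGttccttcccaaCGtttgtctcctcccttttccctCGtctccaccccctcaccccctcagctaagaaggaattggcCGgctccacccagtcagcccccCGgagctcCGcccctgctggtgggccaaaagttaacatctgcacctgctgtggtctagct
Each stretch held 8 CpG dinucleotides. Over the full table windows, which add the first 50 bases of the transcript, Elf3 had 59.0% G or C and 12 CpG and Grhl3 58.3% and 12. The median of all 32851 windows of 300 bases was 52.7% and 7 CpG, whereas the Klf4 window had 74.3% and 40 CpG.

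These windows were searched on both strands for 7 motifs: STAT6 (TTC and GAA with any 4 bases between them), GRHL (AACCGGTT), AP-1 (TGANTCA), ETS (AGGAAGT), SOX (ACAATGG), KLF (GGGTGTGG) and OVOL (CCGTTA). The letters of none of the 7 were found in the 6 windows of the 5 matched regulators (2 windows belong to Grhl1). Among all windows, 6.95% held the STAT6 letters, 0.146% the GRHL letters, 7.81% AP-1, 9.35% ETS, 3.66% SOX, 3.56% KLF and 2.76% OVOL. At least 1 of the 7 was present in 29.7% of windows.

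Sox2 (ENSMUSG00000074637, chr3:34650405-34652461, plus strand), the partner of p63 in basal cells, had 0 reads in all 16 libraries. Taking 3 reads as the most that a count of 0 allows, the upper limit was 0.0322 CPM (reads per 1 M of all reads) over the WT OXA libraries together and 0.0981 CPM over those of WT vehicle. It was 0.0583 CPM for KO vehicle and 0.0648 CPM for KO OXA, and covers counting error only. Those limits apply to reads assigned to the gene, and in GENCODE M21 the whole of Sox2 lies inside the span of the noncoding gene Sox2ot (chr3:34104270-34682619, plus strand). No exon of Sox2ot overlaps Sox2: the nearest ends 11.8 kb upstream and the next begins 0.72 kb downstream. Sox2ot itself had values from 17.8 to 95.9. Of 446 protein-coding genes lying inside the span of another gene on the same strand, 445 had 0 reads in every library (99.8%), as did 235 of the 236 among them with no exon overlap (99.6%). Lipo2 was the exception. The share was 21.7% of 803 genes inside a gene on the opposite strand only and 15.8% of 12601 genes overlapping no other gene. The Sox2 value in this table is therefore no measure of whether Sox2 was expressed.

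**Figure D1:**
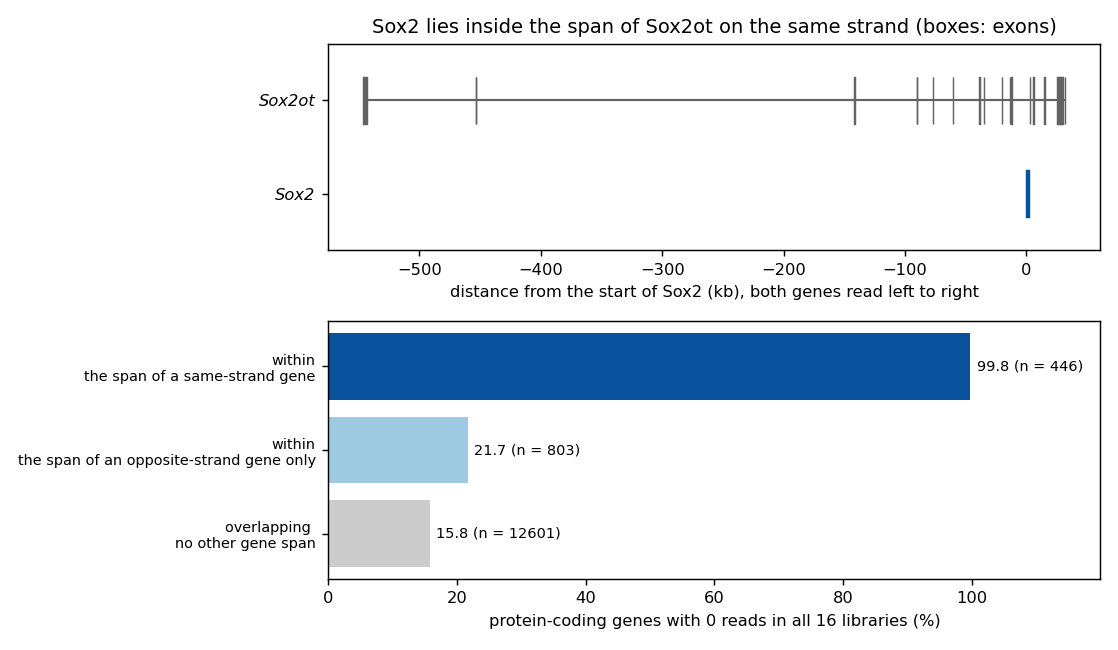
The upper panel maps the exons of Sox2 and Sox2ot as distance from the Sox2 start in kb, and the lower panel gives the percentage of protein-coding genes with 0 reads in all 16 libraries by how they overlap other genes. Sox2 sits between exons of Sox2ot, and 99.8% of genes placed inside a same-strand gene had 0 reads.

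The other 9 regulators share no span with a gene on their own strand. On the opposite strand, Zfp750 overlaps Tbcd, Elf3 overlaps Gm26642 and Trp63 overlaps Gm24928. Whether the counting used strand is not given in the sources used here. As given above, 21.7% of genes inside an opposite-strand gene only were at 0, near the 15.8% of genes overlapping no other gene. Inside a same-strand gene it was 99.8%. Overlap on the opposite strand thus did not generally set a gene to 0. Gm26642 averaged at most 3.50 in any group and Gm24928 was at 0, whereas Tbcd averaged 731 and 409.7 in the wild-type vehicle and OXA groups and 712 and 803 in those of the knockout.

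The first comparison asked which of the regulators changed with OXA in wild-type esophagus. Elf3 rose, and Grhl3, Klf5 and Ehf fell, while the other 5 (Trp63, Klf4, Grhl1, Ovol1 and Zfp750) did not pass the threshold of an adjusted p of 0.05 in limma, adjusted by Benjamini-Hochberg across the tested genes. The 4 calls among 9 are to be read against 34.0% of all tested genes called in this comparison (3019 higher and 2673 lower), a share near that of the regulators. The split was 5121 higher and 1495 lower with equal library totals and 1267 and 4402 with scaling to pan-epithelial markers. The wild-type groups did not overlap for 4 of the 9, against 34.2% of all tested genes. Fold changes are on the scale of log2(value + 1), with the SE.

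Elf3 (ENSMUSG00000003051, chr1:135253575-135258568, minus strand) encodes an epithelium-specific ETS factor that is induced in inflamed epithelia. Its 4 WT vehicle libraries had 417, 420.3, 566 and 468, and its 4 WT OXA libraries 2789.7, 2582, 3185 and 2048. Every OXA library lay above every vehicle library. The means were 468 ± 69.2 and 2651 ± 474 (SD, n = 4), a 5.63-fold rise (log2 2.49 ± 0.197, 95% interval 2.08 to 2.90, adjusted p = 1.52e-08, limma). By p it ranked 74 among the 16748 tested genes, the smallest p of the 9 regulators.

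Grhl3 (ENSMUSG00000037188, chr4:135541888-135573630, minus strand) encodes a grainyhead-like factor that drives barrier formation in the upper layers. It had 2279, 2437, 2346 and 2319.9 in WT vehicle and 1117, 1078, 841 and 1160.5 in WT OXA. The vehicle libraries differed little among themselves, and all OXA libraries lay far below them. The means were 2345 ± 67.0 and 1049 ± 143 (SD, n = 4), so Grhl3 was 2.25-fold lower (log2 -1.17 ± 0.150, 95% interval -1.48 to -0.86, adjusted p = 8.51e-06, limma).

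Klf5 (ENSMUSG00000005148, chr14:99298691-99315036, plus strand) encodes a Krüppel-like zinc finger factor of proliferating epithelium. It had 4281, 4477, 5415 and 5571 in WT vehicle and 2066, 2698, 2854 and 3113 in WT OXA. The ranges did not overlap, and the lowest OXA library was replicate 1. Klf5 was 1.85-fold lower (log2 -0.89 ± 0.151, 95% interval -1.20 to -0.57, adjusted p = 0.000169, limma).

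Ehf (ENSMUSG00000012350, chr2:103263433-103303278, minus strand) encodes the other epithelium-specific ETS factor of the set. It had 4025, 5424, 3211 and 3655 in WT vehicle and 2841, 1814, 2576 and 2673 in WT OXA. The groups did not overlap but came close, with 3211 the lowest vehicle and 2841 the highest OXA value. The fall was 1.64-fold (log2 -0.71 ± 0.263, adjusted p = 0.0421, limma) and lost its call in 12 of 27 alternative analyses, among them equal library totals (adjusted p = 0.251), quantile normalization (0.115), no filter (0.084), edgeR (0.0524) and leaving out any of 8 single libraries. Those 8 were WT vehicle replicates 1, 2 and 4, WT OXA replicates 2, 3 and 4 and KO vehicle replicates 2 and 3, without which the adjusted p lay between 0.0504 and 0.135. Elf3, Grhl3 and Klf5 were called in all 27.

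**Figure D2:**
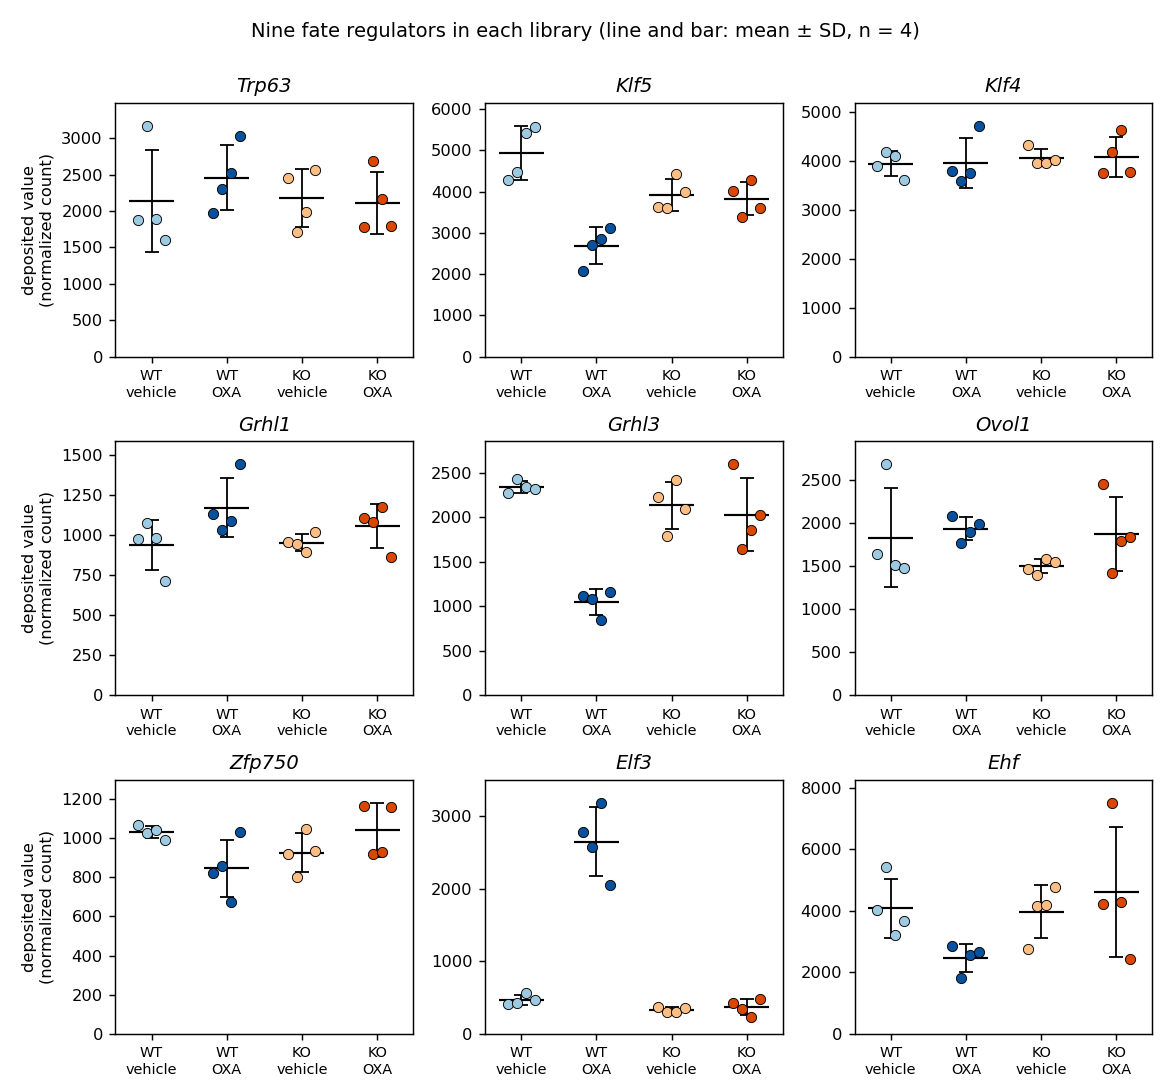
Each panel shows 1 of the 9 measured regulators, with the deposited normalized count on the vertical axis, 1 point per library and a line and bar for the group mean ± SD (n = 4). The 4 WT OXA libraries sit above all others for Elf3 (2048 to 3185) and below all others for Grhl3 (841 to 1160.5) and Klf5 (2066 to 3113), whereas Klf4 group means lie between 3943 and 4085.

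Klf4 (ENSMUSG00000003032, chr4:55527143-55532466, minus strand), a Krüppel-like factor that promotes differentiation, was almost level across the design. Its WT vehicle libraries had 3884, 4177, 4105 and 3606 and its WT OXA libraries 3791, 3589.6, 3747 and 4711. The log2 change was 0.00 ± 0.13, with a 95% interval of -0.27 to 0.27, and the 4 group means lay between 3943 and 4085. On the deposited scaling, larger changes in either direction lie outside that interval.

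Trp63 (ENSMUSG00000022510, chr16:25683763-25892102, plus strand) is annotated with 8 transcripts, and 3′ counting of whole genes cannot tell its isoforms apart. It averaged 2136 ± 702 in WT vehicle and 2456 ± 445 in WT OXA (SD, n = 4). The vehicle spread came from replicate 2 at 3169, with the other vehicle libraries at 1605, 1884 and 1886. Its log2 change of 0.24 ± 0.204 (adjusted p = 0.403, limma) had a 95% interval of -0.19 to 0.66.

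Ovol1 (ENSMUSG00000024922, chr19:5549137-5560575, minus strand) encodes a zinc finger repressor that limits proliferation as cells differentiate. Replicate 2 of WT vehicle stood apart, at 2679.6 against 1645, 1516 and 1479.8, while the WT OXA libraries lay between 1766 and 2076. The log2 change was 0.12 ± 0.18 (adjusted p = 0.64, limma).

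Grhl1 (ENSMUSG00000020656, chr12:24572283-24617391, plus strand) and Zfp750 (ENSMUSG00000039238, chr11:121510978-121519333, minus strand) stood close to the threshold. Grhl1 averaged 939 ± 156 in WT vehicle and 1174 ± 185 in WT OXA (log2 0.33 ± 0.151, unadjusted p 0.0432, adjusted p = 0.103, limma). Zfp750, a zinc finger factor downstream of p63, averaged 1032.5 ± 32.2 and 846 ± 147 (log2 -0.30 ± 0.143, unadjusted p 0.0472, adjusted p = 0.11, limma). WT OXA replicate 4 was the highest of its group for Grhl1 (1443), Grhl3 (1160.5), Zfp750 (1032), Trp63 (3031), Klf4 (4711) and Klf5 (3113) and the lowest for Elf3. Without that library Zfp750 passed the threshold (log2 -0.40, adjusted p = 0.0472).

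Calls near the threshold also depended on how libraries were put on one scale. With equal library totals the median log2 change of all tested genes in wild type moved by 0.31, to 0.41 from 0.10 with the deposited factors. Grhl1 (0.65, adjusted p = 0.00114), Trp63 (0.56, adjusted p = 0.0418) and Ovol1 (0.44, adjusted p = 0.0391) then passed as higher. Equal totals apply 1 factor to each library and so shift all genes alike, which is why the 3 moved with the median. Grhl1 also passed with quantile normalization (0.38, adjusted p = 0.0317). Scaling to pan-epithelial markers turned the sign of all 3, with Grhl1 at -0.06, Trp63 at -0.15 and Ovol1 at -0.26, none of them called. Zfp750 was called lower with that scaling (-0.69, adjusted p = 0.00334) and stood at 0.02 (adjusted p = 0.933) with equal library totals. The direction of these 4 genes in wild type therefore depended on the scaling.

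The second comparison asked whether OXA changed the regulators in mice without Il13ra1. None of the 9 passed, in a comparison in which 1.90% of all tested genes did. None had an unadjusted p under 0.05 and for none did the KO vehicle and KO OXA libraries have separate ranges (6.87% of all tested genes had them). No regulator was called by edgeR, DESeq2 or any of the other alternatives, 27 in all. The log2 changes lay between -0.08 for Grhl3 and 0.30 for Ovol1, whose adjusted p of 0.486 was the smallest.

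Elf3 had 374, 304, 304 and 353 in KO vehicle and 429, 342, 230.2 and 479 in KO OXA. The OXA libraries lay on both sides of the vehicle libraries. The log2 change was 0.10 ± 0.197, with a 95% interval of -0.31 to 0.51 (adjusted p = 0.867, limma). Grhl3 had 2233, 1794, 2421 and 2093 in KO vehicle and 2596, 1646, 1860.4 and 2028 in KO OXA, again overlapping, with a 95% interval of -0.40 to 0.23 for the log2 change. Klf5 averaged 3909 ± 383 and 3819 ± 399.6 (SD, n = 4), with an interval of -0.35 to 0.28.

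Ehf was the most variable regulator in the knockout, with 4223, 7512, 4290.2 and 2431 in KO OXA and 2752, 4174, 4190.2 and 4766 in KO vehicle. Its interval of -0.42 to 0.68 was correspondingly wide. Trp63 (2181 ± 402 and 2111 ± 426), Klf4 (4065 ± 174 and 4085 ± 409.5), Grhl1 (955 ± 51.2 and 1059 ± 137), Ovol1 (1496 ± 80.7 and 1874 ± 432) and Zfp750 (925 ± 99.4 and 1043 ± 137) overlapped between KO vehicle and KO OXA.

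**Figure D3:**
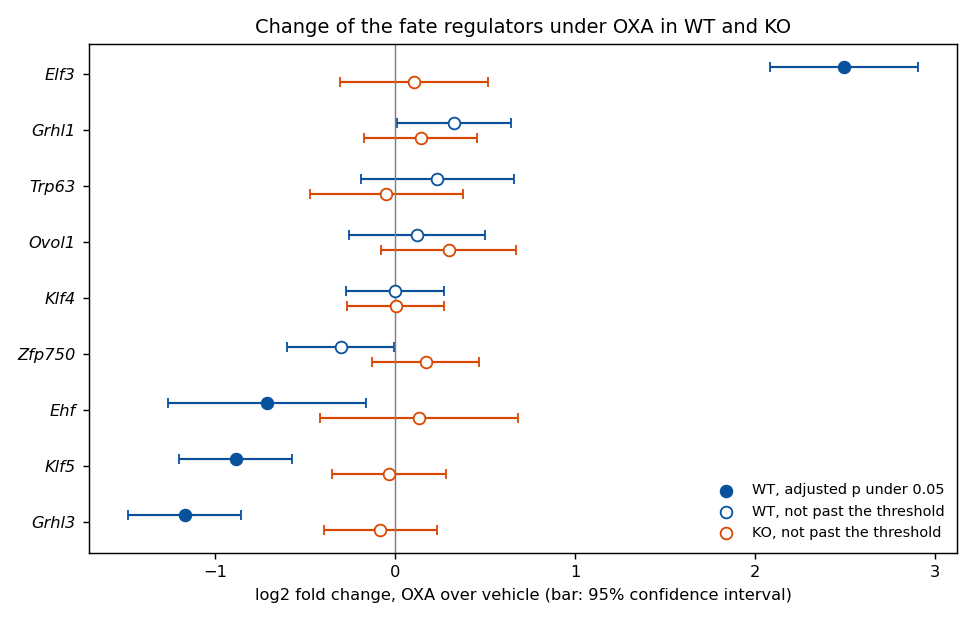
Points give the log2 fold change of OXA over vehicle for the 9 regulators in WT (blue) and KO (orange), with 95% confidence intervals, and filled points passed an adjusted p of 0.05. In WT the changes run from -1.17 (Grhl3) to 2.49 (Elf3), while every KO interval includes 0.

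The difference between the knockout and the wild-type effect was tested as an interaction. It passed for Elf3, Grhl3 and Klf5, 3 of 9, where 17.8% of all tested genes passed (1698 higher and 1284 lower in the knockout). With equal library totals the split was 884 and 3467, and with pan-epithelial scaling 2471 and 364. For Elf3 the knockout effect was lower by a log2 value of -2.39 ± 0.278 (adjusted p = 9.18e-06, limma). For Grhl3 it was higher by 1.09 ± 0.212 (adjusted p = 0.00166) and for Klf5 by 0.85 ± 0.213 (adjusted p = 0.00925). Elf3 and Grhl3 passed in all 26 alternatives, whereas Klf5 was lost with equal library totals (0.41, adjusted p = 0.139) and with quantile normalization (0.43, adjusted p = 0.141). Ehf had a difference of similar size to Klf5, 0.85 ± 0.371, that did not pass (adjusted p = 0.123, limma). Without KO OXA replicate 4, the lowest Ehf library of its group, it did (adjusted p = 0.0189).

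Under vehicle the genotypes were compared directly, to ask whether the receptor chain mattered without OXA. None of the 9 regulators was called, against 0.0597% of all tested genes, and none in any of the 27 alternatives, edgeR and DESeq2 included. Klf5 and Elf3 had unadjusted p values under 0.05. Elf3 was 1.40-fold lower in KO (log2 -0.48 ± 0.197, adjusted p = 0.506, limma), and its vehicle libraries did not overlap between genotypes, 304 to 374 against 417 to 566. It was the 1 regulator of 9 with separate ranges, where 5.35% of all tested genes had them. Klf5 was lower by a log2 value of -0.33 ± 0.151 (adjusted p = 0.535, limma), with overlapping libraries.

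Under OXA, 27.6% of all tested genes differed between the genotypes (2450 higher and 2167 lower in KO), and 4 of the 9 regulators did. The split was 1271 and 5117 with equal library totals and 5041 and 494 with pan-epithelial scaling. This comparison uses the same WT OXA libraries as the first, so it is not a separate view of the wild-type change. Elf3 was 7.32-fold lower in KO OXA than in WT OXA (log2 -2.87 ± 0.197, adjusted p = 1.66e-09, limma). Grhl3 was higher by 0.94 ± 0.150 (adjusted p = 0.000101), Ehf by 0.81 ± 0.263 (adjusted p = 0.0269) and Klf5 by 0.52 ± 0.151 (adjusted p = 0.0139). Elf3, Grhl3 and Klf5 had separate ranges (29.3% of all tested genes did), and Ehf did not, because KO OXA replicate 4 fell inside the WT OXA range.

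Elf3 and Grhl3 kept their calls here under all 27 alternatives. Klf5 lost its call with equal library totals (0.11, adjusted p = 0.583), quantile normalization (0.22, adjusted p = 0.252) and without WT OXA replicate 1 (0.40, adjusted p = 0.065). Ehf lost it in 7, with no filter (adjusted p = 0.0579), equal library totals (0.255), quantile normalization (0.143), the 2 groups alone (0.0557), and without WT OXA replicate 2 (0.0966) or KO OXA replicate 2 (0.105) or 3 (0.0558).

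Over the 4 groups, Elf3 levels ran from WT OXA through WT vehicle and KO OXA to KO vehicle. The first step was far beyond the spread, WT vehicle and KO vehicle had separate ranges, and KO OXA overlapped both. For Grhl3 and Klf5 the lowest group was WT OXA and the highest WT vehicle, and the KO groups between them overlapped each other. KO vehicle also overlapped WT vehicle for both genes. The remaining regulators had no group whose libraries stood clear of the other 3 groups.

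A total of 3 pairs among these genes belong to the same family, and their ratio within a library does not depend on the scaling factor of that library. The values are not divided by transcript length, so the change of a ratio between groups can be read and its height cannot. The changes follow from the values above and are a description without a test. For the ETS factors, Elf3 over Ehf was -3.27, -3.69, -2.51 and -2.97 on the log2 scale in WT vehicle and -0.03, 0.51, 0.31 and -0.38 in WT OXA. All WT OXA libraries lay above all others. The mean ratio moved by 3.21 in wild type and by -0.03 in the knockout.

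For the grainyhead-like pair, Grhl1 over Grhl3 averaged -1.34 ± 0.24 in WT vehicle and 0.16 ± 0.22 in WT OXA (SD, n = 4). In KO vehicle it averaged -1.16 ± 0.22 and in KO OXA -0.93 ± 0.35. The mean ratio moved by 1.50 in wild type and by 0.23 in the knockout. For the Krüppel-like pair, Klf4 over Klf5 averaged -0.32 ± 0.25 and 0.57 ± 0.22 in wild type and 0.06 ± 0.18 and 0.10 ± 0.17 in the knockout, moving by 0.89 and 0.04. In each of the 3 pairs the partners therefore changed unequally in wild type.

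**Figure D4:**
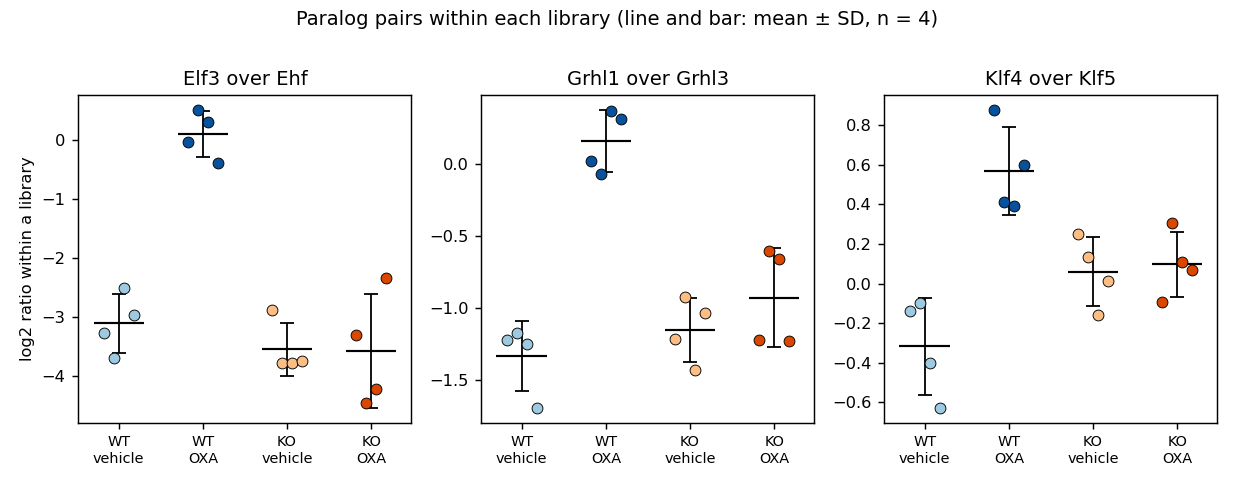
Each panel gives the log2 ratio of 2 regulators of one family within each library, with the group mean ± SD (n = 4). The 4 WT OXA libraries lie above every other library in all 3 panels, at a mean of 0.10 for Elf3 over Ehf, 0.16 for Grhl1 over Grhl3 and 0.57 for Klf4 over Klf5.

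The genes whose profile over the 16 libraries was most like each regulator were found by the root mean square difference of centred log2 values over 12326 genes. For Elf3 these were Gatm (0.347), Papss2 (0.363) and Vasp (0.422), where the profile of Elf3 itself had a root mean square of 1.24. For Grhl3 they were Lztr1 (0.135), Bscl2 (0.153) and Kxd1 (0.156), against 0.491 for Grhl3 itself. For Klf5 they were Atp1b3 (0.111), Rpl14 (0.12) and Eef1g (0.136), against 0.357. For Ehf they were Plxdc2 (0.266), Rab27b (0.283) and Myo6 (0.284), against 0.493. The 10 regulators were left out of the genes searched, so their likeness to one another was not examined.

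The genes around these regulators were counted in 3 lists, whose counts stand beside 34.0% of all tested genes called in wild type, 1.90% in the knockout and 17.8% in the interaction. At 1.90%, a count of 0 in lists of this size differs little from the background. Of 19 basal program genes (keratins, integrins and laminins of the basal layer and its anchorage), 3 rose and 9 fell with OXA in wild type, with a median log2 change of -0.42 against 0.10 for all genes. Krt14 rose by 2.04 ± 0.204, whereas Krt15 (-2.38 ± 0.279), the hemidesmosomal collagen Col17a1 (-1.79 ± 0.207) and the laminin chain Lama3 (-1.04 ± 0.158) fell. In the knockout 0 of the 19 changed (median 0.01). The interaction passed for 6, higher in KO for 5 and lower for 1.

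Of 34 terminal differentiation genes 31 were tested, and 5 rose and 18 fell in wild type, with a median of -1.04. Slurp1, a secreted Ly6-family protein of keratinocytes, fell from 1084 ± 279.9 to 20.2 ± 16.8 (SD, n = 4; log2 -5.99 ± 0.426, adjusted p = 3.5e-09, limma). Krt78 (log2 -2.53) and the S100-fused proteins Flg (-6.38) and Hrnr (-5.40) fell as well. In the knockout 0 of the 31 changed (median 0.19), and the interaction passed for 15 higher and 4 lower.

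Of 37 other squamous regulators, 12 rose and 6 fell in wild type, with a median of 0.15. Elf5, an ETS factor related to Elf3 and Ehf, fell by 1.16 (SE 0.20, adjusted p = 0.000196, limma), and its interaction was 0.91 (adjusted p = 0.0323). Rbpj, the nuclear effector of Notch, rose by 1.18 ± 0.173. Cebpb rose by 0.72 ± 0.171, with an interaction of -0.97 (adjusted p = 0.00914), and Nfe2l2 changed by -0.64 ± 0.159. In the knockout 1 of the 37 rose and 1 fell, the latter being Vdr (-0.73, adjusted p = 0.00958, limma). The near relatives Grhl2 (-0.16 ± 0.220, adjusted p = 0.617) and Ovol2 (0.56 ± 0.379, adjusted p = 0.273) did not pass in wild type.

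**Figure D5:**
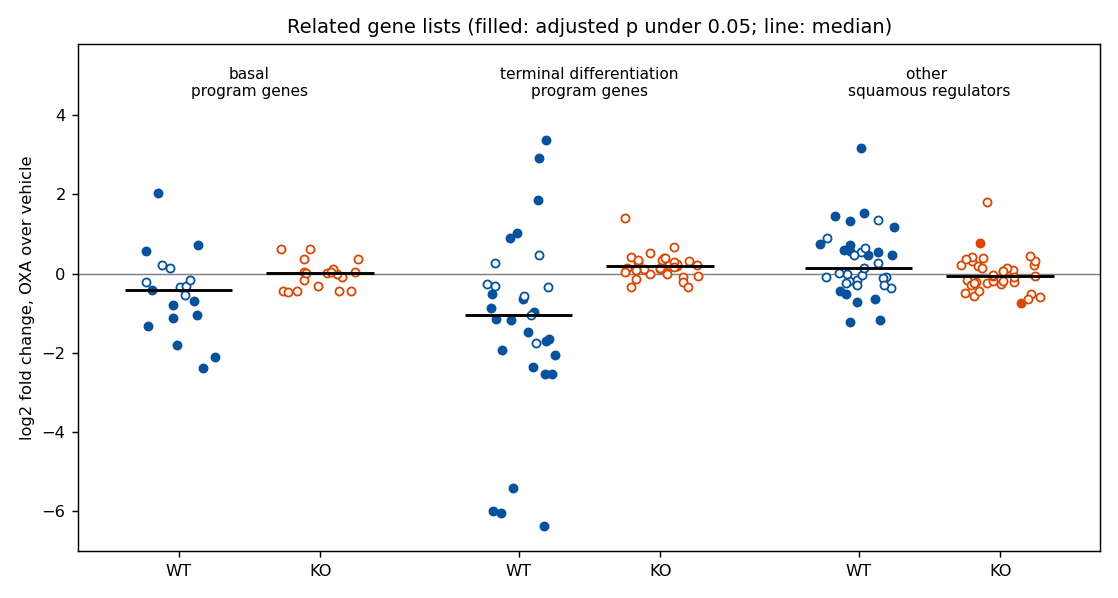
Points give the log2 fold change of OXA over vehicle for each tested gene of the 3 lists in WT (blue) and KO (orange), filled where the adjusted p was under 0.05, with a line at the median. The WT medians are -0.42, -1.04 and 0.15, and the KO medians 0.01, 0.19 and -0.06.

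The esophagus was taken whole, so fewer cells of a type and less RNA per cell cannot be told apart, and markers of its cell types were set beside the regulators. The counts of called markers stand beside 34.0% of all tested genes called in wild type and 1.90% in the knockout. Of 10 pan-epithelial markers, 6 rose and 1 fell with OXA in wild type, and 0 changed in the knockout. Their summed value overlapped in wild type, at 44990 to 61330 with vehicle and 40160 to 56420 with OXA. In the knockout the sum was 42390 to 46820 with vehicle and 40400 to 51930 with OXA. The mean log2 value of these markers per library was 9.99 to 10.2 with vehicle and 10.2 to 10.7 with OXA in wild type. In the knockout that mean was 9.80 to 10.01 with vehicle and 9.75 to 10.3 with OXA. Cldn7 enters it like any other marker, although its knockout averages were only 0.60 (vehicle) and 0.92 (OXA). Between genotypes under OXA its log2 difference was -3.27. No value obtained by scaling to these markers was recomputed without Cldn7. When the libraries were scaled to that mean, the wild-type changes of Elf3 (2.11, adjusted p = 3.39e-07), Grhl3 (-1.55, adjusted p = 5.87e-07) and Klf5 (-1.27, adjusted p = 4.58e-06) kept their calls in limma. With reads thinned to the shallowest library they were 2.48, -1.16 and -0.88, all called.

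Leukocyte markers rose for 6 of 9 tested in wild type and 4 of 9 in the knockout, with Itgam at 0 in every library. Their summed value was 4400 to 5297 with vehicle and 6249 to 7524 with OXA in wild type, and 2526 to 4324 and 6447 to 14540 in the knockout. Endothelial markers rose for 6 of 7 in wild type and 0 of 7 in the knockout (summed 802 to 985, 1340 to 2364, 686 to 1055 and 448 to 916 in the same order of groups). Airway markers, of which 3 of 6 were tested, fell for 2 in wild type, Cyp2f2 and Scgb1a1, and for 0 in the knockout (summed 35760 to 54360, 622 to 1050, 25500 to 34080 and 17170 to 32850). Nearly all of that sum was Cyp2f2, at 41260 ± 8658 in WT vehicle and 847.7 ± 213.8 in WT OXA (SD, n = 4). Scgb1a1 averaged 91.96 and 10.9 and Sftpc 4.95 and 9.07 in those groups. The sum therefore follows Cyp2f2 and does not measure airway tissue. The low Cyp2f2 values thus occurred in the same 4 WT OXA libraries as the low Grhl3 and Klf5 values and the high Elf3 values.

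In wild type, 2 of 8 fibroblast, 4 of 7 smooth muscle and 3 of 9 skeletal muscle markers fell and 1 of 7 glial markers rose. Of these counts only that of smooth muscle was above the 34.0% of all tested genes called. In the knockout 0 genes of these lists changed, which at 1.90% of all tested genes differs little from the background. Of 8 glandular stomach markers 4 were tested and 0 changed in either genotype. The part of these markers and of depth in the changes of the regulators was not tested beyond the scaled and thinned values given above.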

How the data were processed

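The data were 16 CEL-Seq libraries of esophagus RNA. The submitters' processing notes name FastQC 0.11.5, Trim Galore with cutadapt 1.10, TopHat2 2.1.0 with Bowtie2 2.2.6, HTSeq 0.6.1 and DESeq2 1.28.0, and the build GRCm38. Neither the annotation release nor any use of molecular identifiers is given in the sources used here. Each deposited value is a signal: the number of reads of a gene after division by the size factor of its library. With a tolerance of 0.1 read, 100% of values were whole multiples of 1 read, and the reads obtained from them served for depths, edgeR and DESeq2.

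The test was limma 3.58.1 (R 4.3.3) on log2(value + 1). It fitted 4 group means and used eBayes with trend. Its two-sided p-values were adjusted over 16748 genes that reached a value of 5 in 4 or more libraries. This scale understates the change of low genes. Group, replicate and treatment came from the titles. The labels do not tie libraries to separate animals, so p-values measure the spread between these libraries. The 5 comparisons were OXA against vehicle in each genotype, their difference, and the genotypes under each treatment.

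Alternatives were pseudocounts of 0.5 and 5, no filter, a filter of 20, equal totals, quantile normalization, scaling to pan-epithelial markers, the compared groups alone, edgeR 4.0.16, DESeq2 1.42.0, thinned reads and each library left out. The procedure was also run on simulated data in which few genes changed and the library factors were known. That run does not bear on the choice of scaling. All 10 regulators were named whatever their values, and of each list the 4 genes with the smallest p in wild type and the 2 in the interaction. Of the genes this rule names, 1 is not reported here. Vdr, Grhl2 and Ovol2 were named after their values were seen. The regulators and lists were chosen with earlier results of these data known. Overlaps were taken from GENCODE M21, where 9 of the 10 regulators have the deposited coordinates (Ovol1 differs).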

Additional observations from a re-analysis of the deposited data

Results flagged for a closer look

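The effect of OXA differed between genotypes by the interaction test for 3 of the 9 tested regulators, against 17.8% of all tested genes: Elf3 (log2 difference of knockout minus wild type -2.39), Grhl3 (1.09) and Klf5 (0.85). Wild-type Elf3 rose while Grhl3 and Klf5 fell, and none of the 3 passed in the knockout.

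Ovol1 was the 1 of 36 sets of 4 libraries (9 genes in 4 groups) in which a single library stood apart. WT vehicle replicate 2 had 2679.6, and its gap to the next library was 0.862 of the whole range. By chance about 1 in 20 such sets stand out in this way.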

How the results depend on the processing

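Of 1206 values of single regulators under alternatives, 1167 kept their direction and side of the threshold, counting 65 uncalled values that changed sign without a call; 24 lost a call, 14 gained one and 1 reversed. Klf4 in KO against WT under OXA reversed from an uncalled 0.05 to -0.36 (adjusted p = 0.0345, limma) with equal library totals and was 0.55 (adjusted p = 0.0227) with pan-epithelial scaling. Quantile normalization left 2 regulators called between genotypes under OXA, against 4. Leaving out single libraries gave 3 to 4 regulators in wild type, in the interaction and between genotypes under OXA.

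Of all genes, 318 were called in the knockout, 199 with the compared groups alone, 722 with DESeq2 and 182 to 1032 with single libraries left out. Between genotypes under vehicle 10 were called, against 5 with no filter, 5 with equal totals, 4 with pan-epithelial scaling, 46 with DESeq2, 6 with thinned reads and 3 to 12 with libraries left out. The causes were not tested.

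Equal totals moved the median of all genes by 0.31 in wild type, -0.12 in the knockout, -0.43 in the interaction and -0.40 between genotypes under OXA. Pan-epithelial scaling moved it by -0.37, 0.31 and 0.48 in wild type, the interaction and between genotypes under OXA, and by 0.18 under vehicle; quantile normalization by -0.12 in wild type; and DESeq2 by 0.12 in the interaction. With equal totals and pan-epithelial scaling, in that order, the share of called genes that were higher moved from 53.0% to 77.4% and 22.3% in wild type, from 56.9% to 20.3% and 87.2% in the interaction, and from 53.1% to 19.9% and 91.1% between genotypes under OXA. Between genotypes under vehicle it moved from 60.0% to 80.0% and 100%, to 50% with quantile normalization, to 71.4% with edgeR and to 43.5% with DESeq2. No paired analysis was possible because the replicate numbers were given in accession order and the title codes differ between groups. The compared groups alone could not be run separately for the interaction, which uses all 4.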

Other observations

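The pattern in which Sox2 was at 0 touched other genes of the squamous program. Sbsn, which encodes the keratinocyte protein suprabasin, and the leukocyte integrin Itgam were at 0 in every library. The span of Sbsn is covered to 99.8% by Tmem147os and that of Itgam to 99.9% by Gm49368, each on the same strand in GENCODE M21. A value of 0 for such genes in this table is not a measure of their expression.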
